A study of Mus musculus with 8 samples.

Results

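The EGF family ligands and the ERBB receptors were followed in cells sorted from tumor-bearing mouse lungs by their labeling with a protease-activated probe. The set was named gene by gene and holds 10 of the 27179 genes in the count table, the ligands Areg, Ereg, Hbegf, Btc, Tgfa and Egf and the receptors Egfr, Erbb2, Erbb3 and Erbb4. All 10 were found, 8 passed the filter on low counts and were tested, and Egf and Erbb4 did not pass it. The libraries were bulk RNA-seq of 4 QZ1-hi and 4 QZ1-lo populations, described in the series as biological replicates, and each library is named here by its number.

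Every mouse was C57BL/6 by its label (female C57BL/6J in the study's methods) and 18 to 22 weeks old, and bore tumors with the Eml4-Alk rearrangement, an inversion that the labels call a translocation. It had been induced 11 to 12 weeks earlier by an adenovirus delivering Cas9 and guide RNAs to the lung. Only infected cells can carry the rearrangement, so both populations may hold tumor cells and cells of the surrounding lung. All mice received 4.5 nmol of QZ1-(PEG2K) by tail vein, a quenched peptide probe whose Cy5 label is freed when proteases cleave it, and the lungs were removed 2 h after injection. From viable cells without CD45 or CD11b staining, QZ1-hi and QZ1-lo were sorted by Cy5 signal, gated against EpCAM. The cutoffs that the study states are on Cy5 alone, and they leave cells of intermediate signal in neither population. No uninjected or tumor-free lung was among the libraries, and the labels do not say which QZ1-hi and QZ1-lo libraries came from the same mouse.

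EGF family ligands are made as membrane-bound precursors that surface proteases, chiefly ADAM17 and ADAM10, release to act on the same or neighboring cells. Areg, Egf and Tgfa bind EGFR, Hbegf, Ereg and Btc also bind ERBB4, and neuregulins bind ERBB4, some of them also ERBB3. ERBB2 has no known ligand and ERBB3 has little kinase activity, so these receptors signal mainly as partners of the others. In the lung, epithelial cells express ERBB2 and ERBB3, EGFR is present in both epithelium and stroma, and amphiregulin, the product of Areg, is known for its part in repair of the airway and alveoli.

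The promoter sequences of Areg, which fell most among the ligands, and of Egfr, the receptor that rose, are shown here as a description. A part of the promoter in the direction of change was not tested. Each sequence holds the 250 bases before the annotated start, from RefSeq on GRCm38.p6, the build whose name mm10 the submitters' processing notes give. The Areg window is chr5:91139349-91139598 and the Egfr window chr11:16751953-16752202, both on the plus strand. Capitals mark matches, on either strand, to TATAAA (the TATA box), TGACGTCA (the cAMP response element), TGAGTCA (an AP-1 site) and GGGCGG (the GC box).
Areg: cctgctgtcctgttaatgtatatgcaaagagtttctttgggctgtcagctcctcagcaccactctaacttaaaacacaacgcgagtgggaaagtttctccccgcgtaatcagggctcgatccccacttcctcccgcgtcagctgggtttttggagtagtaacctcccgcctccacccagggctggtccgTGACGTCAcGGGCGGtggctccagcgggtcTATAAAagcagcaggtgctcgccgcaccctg
Egfr: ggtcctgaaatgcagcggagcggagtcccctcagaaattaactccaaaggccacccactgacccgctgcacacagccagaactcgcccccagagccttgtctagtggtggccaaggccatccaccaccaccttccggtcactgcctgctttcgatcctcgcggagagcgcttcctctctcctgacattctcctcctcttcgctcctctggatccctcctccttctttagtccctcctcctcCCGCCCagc

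The Areg window held a TATA box whose first base lies 31 bases before the start, a GC box at 52 and a cAMP response element at 61, and its GC content was 57.2%. The Egfr window held only a GC box, read on the reverse strand and 9 bases before the start, with a GC content of 60.8%. Among all 32851 windows of the same length, 12.4% held TATAAA, 1.55% TGACGTCA, 4.46% TGAGTCA and 32.7% GGGCGG, so the cAMP response element was the least common of the motifs in Areg. Windows were found for 7 of the 10 members, all but Ereg, Hbegf and Erbb3. Tgfa held 2 GC boxes, and Btc, Egf (2 windows), Erbb2 and Erbb4 held none of the 4 motifs. Some windows are not upstream of the whole gene span given below. The Tgfa window (chr6:86194972-86195221) reaches into the gene. The Erbb4 window (chr1:69108060-69108309) and the Egf window at chr3:129725087-129725336 lie within theirs. These matches describe the letters only, since no binding or accessibility was measured.

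Levels are CPM, a gene's counts relative to the size of its library, after TMM scaling, which adjusts for differences in library composition. Differences were tested with edgeR's quasi-likelihood test over 15583 genes, and a gene is said to have risen or fallen in QZ1-hi where the Benjamini-Hochberg adjusted p was under 0.05. Of the 8 members tested, 1 rose (Egfr) and 3 fell (Erbb3, Areg and Hbegf), against 9.88% of all tested genes higher and 8.21% lower. The TMM-scaled CPM of the 4 libraries of each population did not overlap for these 4 members, which 22.6% of all tested genes also showed. Without TMM scaling, Hbegf and Egfr overlapped and Areg and Erbb3 did not. The median log2 fold change of the 8 members was -0.52, against 0.02 over all tested genes. With library size alone in place of TMM scaling, the median of all genes moved to -0.44 and the genes called to 882 higher and 2509 lower, in place of 1540 and 1280, while none of the 8 members changed direction. Mitochondrial and ribosomal RNA genes took 43.7 to 65.6% of the counts in QZ1-hi and 34.0 to 53.2% in QZ1-lo, and their part in the members' values was not tested beyond a fit without these genes, in which the same 4 members were called.

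**Figure D1:**
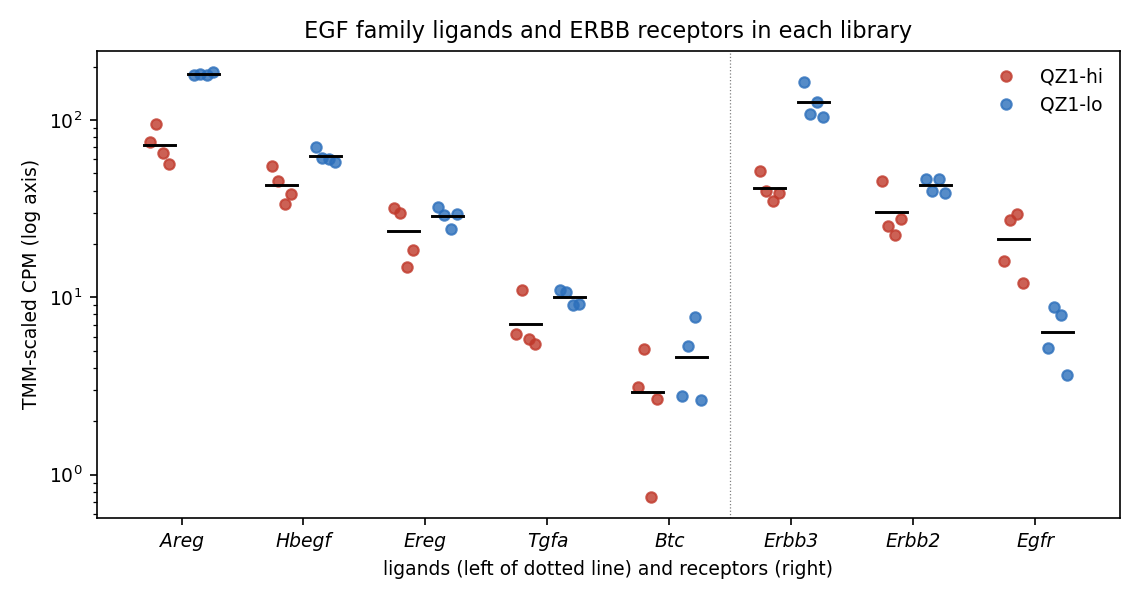
TMM-scaled CPM (log axis) of the 8 tested members in each of the 4 QZ1-hi (red) and 4 QZ1-lo (blue) libraries, with black bars at the means and a dotted line between ligands and receptors. The populations are apart for Areg, Hbegf, Erbb3 and Egfr and overlap for Ereg, Tgfa, Btc and Erbb2.

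Areg (Entrez 11839, chr5:91139599-91148432, plus strand) was the most abundant ligand per kilobase of exon in every library. Its level was 74.8, 94.3, 65.4 and 56.3 CPM in QZ1-hi libraries 4591, 4593, 4595 and 4597. In QZ1-lo libraries 4592, 4594, 4596 and 4598 it was 178, 183, 180 and 187 CPM. On this scale the QZ1-lo libraries lay within a narrow band, and every one of them was above every QZ1-hi library. The width of the band depends on the scaling. The QZ1-lo counts were 5980, 4492, 4973 and 4558, with TMM factors of 1.35, 0.97, 1.27 and 1.16. Without TMM scaling the populations still did not overlap. The means were 72.7 ± 16.3 and 182 ± 3.61 CPM (SD, n = 4 each), a 2.50-fold lower level in QZ1-hi with a log2 fold change of -1.32 ± 0.15 (SE, edgeR adjusted p = 0.000332). The exact permutation test over the 70 assignments of the libraries gave a two-sided p = 0.0286, the smallest it can give. In bulk RNA, fewer cells of a type and less RNA per cell cannot be told apart.

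Hbegf (Entrez 15200, chr18:36504927-36515805, minus strand), heparin-binding EGF, was the second ligand per kilobase of exon in every library. It stood at 54.7, 45.0, 33.6 and 38.1 CPM in the QZ1-hi libraries and at 70.3, 61.1, 60.3 and 58.0 CPM in the QZ1-lo libraries, in the same library order. The highest QZ1-hi library was close to the lowest QZ1-lo library without reaching it. Without TMM scaling the CPM of the populations overlapped (exact permutation p = 0.0571). EdgeR on library size alone still called the gene, at a log2 fold change of -0.99. The log2 fold change was -0.54 ± 0.15 (SE, edgeR adjusted p = 0.0321), a 1.46-fold difference. This call did not hold without QZ1-lo library 4592 (adjusted p = 0.0935), 4594 (0.0668) or 4596 (0.0534), nor without QZ1-hi library 4595 (0.0679) or 4597 (0.0895), with edgeR in each case. Over the 8 fits that left out 1 library each, the fold change lay between -0.68 and -0.46 on the log2 scale.

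Ereg (Entrez 13874, chr5:91074617-91093649, plus strand), epiregulin, did not pass the test although it lies next to Areg. It was measured at 31.9, 29.8, 14.7 and 18.5 CPM in QZ1-hi and at 32.1, 29.3, 24.3 and 29.5 CPM in QZ1-lo. QZ1-hi libraries 4591 and 4593 were at the level of the QZ1-lo libraries, and 4595 and 4597 were below all of them. The log2 fold change was -0.27 ± 0.23 (SE, edgeR adjusted p = 0.496), with a 95% interval from -0.73 to 0.18. Of its exons, 141 bases overlap the antisense gene Gm19610. Exons of Tgfa (118 bases), Egf (1107), Erbb2 (9), Nrg1 (482) and Nrg4 (545) also overlap genes on the opposite strand. Reads of such genes cannot be separated here, because the strand setting of the counting was not given in the sources used here.

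Btc (Entrez 12223, chr5:91357261-91402994, minus strand), betacellulin, is the third tested ligand of the same chromosomal cluster. Its level was 3.14, 5.14, 0.75 and 2.68 CPM in QZ1-hi and 2.77, 5.29, 7.78 and 2.62 CPM in QZ1-lo. The ranges overlapped in part, with QZ1-hi library 4595 below every QZ1-lo library and QZ1-lo libraries 4594 and 4596 above every QZ1-hi library. The log2 fold change of -0.65 ± 0.53 (SE, edgeR adjusted p = 0.481) had an interval from -1.70 to 0.39. Along the 4-ligand cluster Epgn, Ereg, Areg and Btc, Areg was the only gene called in the main analysis, and Epgn, with 68 counts in all 8 libraries, was not tested. The noncoding gene Gm19619, between Areg and Btc, had 69 counts and a log2 fold change of -0.03 ± 1.07 (SE).

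Tgfa (Entrez 21802, chr6:86195038-86275744, plus strand), transforming growth factor alpha, was at 6.19, 11.0, 5.84 and 5.42 CPM in QZ1-hi and at 11.0, 10.8, 9.01 and 9.17 CPM in QZ1-lo. QZ1-hi library 4593 alone reached the QZ1-lo range. The log2 fold change was -0.49 ± 0.25 (SE, edgeR adjusted p = 0.232). Without library 4593 it was -0.80 (adjusted p = 0.0253), and with library size alone it was -0.97 (adjusted p = 0.0325). Egf (Entrez 13645, chr3:129677574-129755322, minus strand) was close to absent, with 1, 0, 0 and 10 counts in QZ1-hi and 11, 9, 5 and 20 counts in QZ1-lo.

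Erbb3 (Entrez 13867, chr10:128567523-128589635, minus strand), the neuregulin receptor, fell most of all members. It was measured at 51.7, 39.6, 34.8 and 39.0 CPM in QZ1-hi and at 165, 108, 126 and 104 CPM in QZ1-lo. The lowest QZ1-lo library was above the highest QZ1-hi library by a wide margin, and library 4592 stood highest of all. The means were 41.3 ± 7.25 and 126 ± 27.6 CPM (SD, n = 4 each), a 3.05-fold difference with a log2 fold change of -1.61 ± 0.18 (SE, edgeR adjusted p = 0.000278).

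Egfr (Entrez 13649, chr11:16752203-16913907, plus strand), the receptor shared by all 6 ligands, was the one member that rose. It was at 15.9, 27.3, 29.6 and 12.0 CPM in QZ1-hi and at 5.19, 8.79, 7.997 and 3.64 CPM in QZ1-lo. The populations did not overlap, and within QZ1-hi libraries 4593 and 4595 were well above 4591 and 4597. The means were 21.2 ± 8.56 and 6.40 ± 2.40 CPM (SD, n = 4 each), a 3.31-fold difference with a log2 fold change of 1.73 ± 0.34 (SE, edgeR adjusted p = 0.00503). Without TMM scaling the CPM of the populations overlapped (exact permutation p = 0.0857), while edgeR on library size alone still called the gene, at a log2 fold change of 1.30.

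Erbb2 (Entrez 13866, chr11:98412484-98437716, plus strand), the receptor without a ligand, was at 45.0, 25.4, 22.5 and 27.5 CPM in QZ1-hi and at 46.4, 39.9, 46.4 and 38.8 CPM in QZ1-lo. QZ1-hi library 4591 stood among the QZ1-lo libraries and the other 3 were below them. The log2 fold change of -0.51 ± 0.20 (SE) did not pass the test (edgeR adjusted p = 0.116). It was -0.77 without library 4591 (adjusted p = 0.00485) and -0.93 with library size alone (adjusted p = 0.0295). Erbb4 (Entrez 13869, chr1:68031884-69108576, minus strand) had 2 counts in QZ1-hi library 4595 and 0 in the other 7 libraries, where 0 counts allow a level of up to 0.179 CPM in the shallowest.

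**Figure D2:**
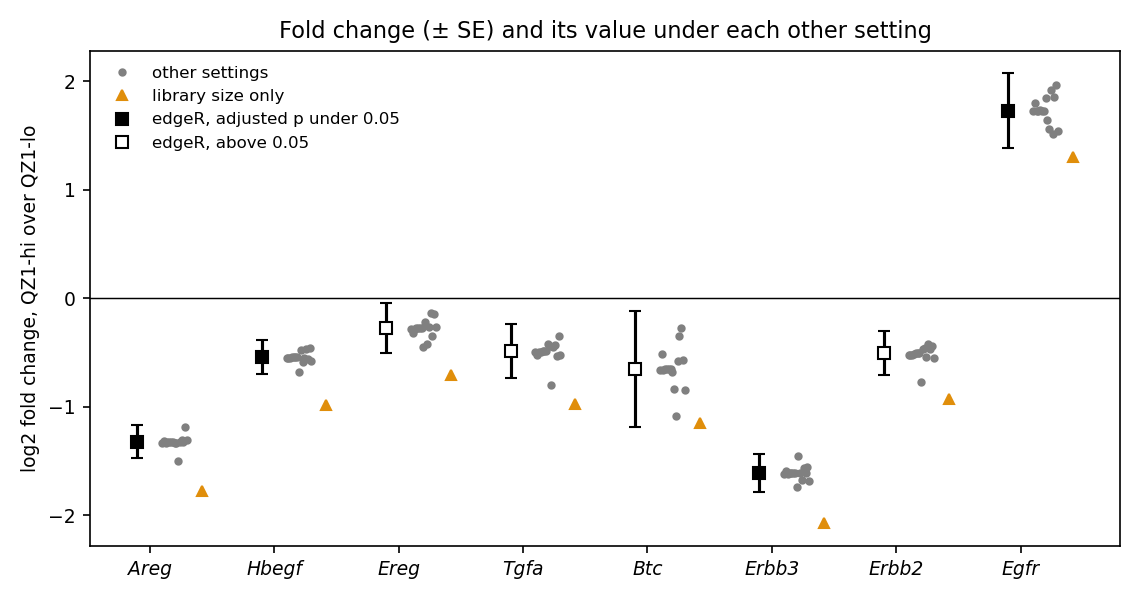
Log2 fold change of QZ1-hi over QZ1-lo for each tested member (squares, bars are SE, filled where the edgeR adjusted p was under 0.05), with the value under each alternative (gray) and under library size alone (orange triangles). Areg, Erbb3 and Egfr kept their sign and their call throughout, and the library size values lie below the others for all 8 members.

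Per kilobase of annotated exon, the ligand order was Areg, Hbegf, Ereg, Tgfa, Btc and Egf by mean in both populations. Areg averaged 59.8 ± 13.4 CPM per kb in QZ1-hi and 150 ± 2.97 in QZ1-lo, Hbegf 8.87 ± 1.90 and 12.9 ± 1.12, and Ereg 5.76 ± 2.04 and 6.97 ± 0.787 (SD, n = 4 each). The libraries of Hbegf and Ereg overlapped on this scale in QZ1-hi and not in QZ1-lo. Tgfa and Btc were neighbors, at 1.10 ± 0.403 and 0.647 ± 0.398 CPM per kb in QZ1-hi and at 1.54 ± 0.161 and 1.02 ± 0.540 in QZ1-lo. Their spreads across libraries overlapped, but within libraries Tgfa was above Btc in all but QZ1-lo library 4596. Among receptors, Erbb3 and Erbb2 were within their spread in QZ1-hi, at 6.86 ± 1.20 and 5.78 ± 1.95 CPM per kb. Within QZ1-hi libraries Erbb3 was above Erbb2 in all but 4591. In QZ1-lo Erbb3 and Erbb2 were apart, at 20.9 ± 4.59 and 8.23 ± 0.784. Egfr was lowest of the 3 on this scale in both, at 1.87 ± 0.756 and 0.565 ± 0.212 CPM per kb.

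The makeup of the ligand and receptor transcripts differed between the populations. Areg took 78.5% ± 3.29 of the ligand CPM per kb in QZ1-hi and 86.9% ± 0.959 in QZ1-lo (SD, n = 4 each). Hbegf took 11.8% ± 1.98 and 7.50% ± 0.688, and Ereg 7.45% ± 1.61 and 4.05% ± 0.438. Erbb3 took 47.4% ± 2.28 of the receptor CPM per kb in QZ1-hi and 70.1% ± 2.9997 in QZ1-lo, Erbb2 39.2% ± 5.75 and 28.0% ± 2.53, and Egfr 13.4% ± 6.50 and 1.94% ± 0.826. Each of these 6 shares was without overlap between the populations, as was that of Tgfa, while those of Btc, Egf and Erbb4 overlapped. Shares of 1 total depend on each other, and no background over other genes was taken. Erbb2, whose level did not pass the test, thus had a higher share in QZ1-hi. The shares of Erbb2 and Tgfa overlapped, however, when counts were not divided by length.

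**Figure D3:**
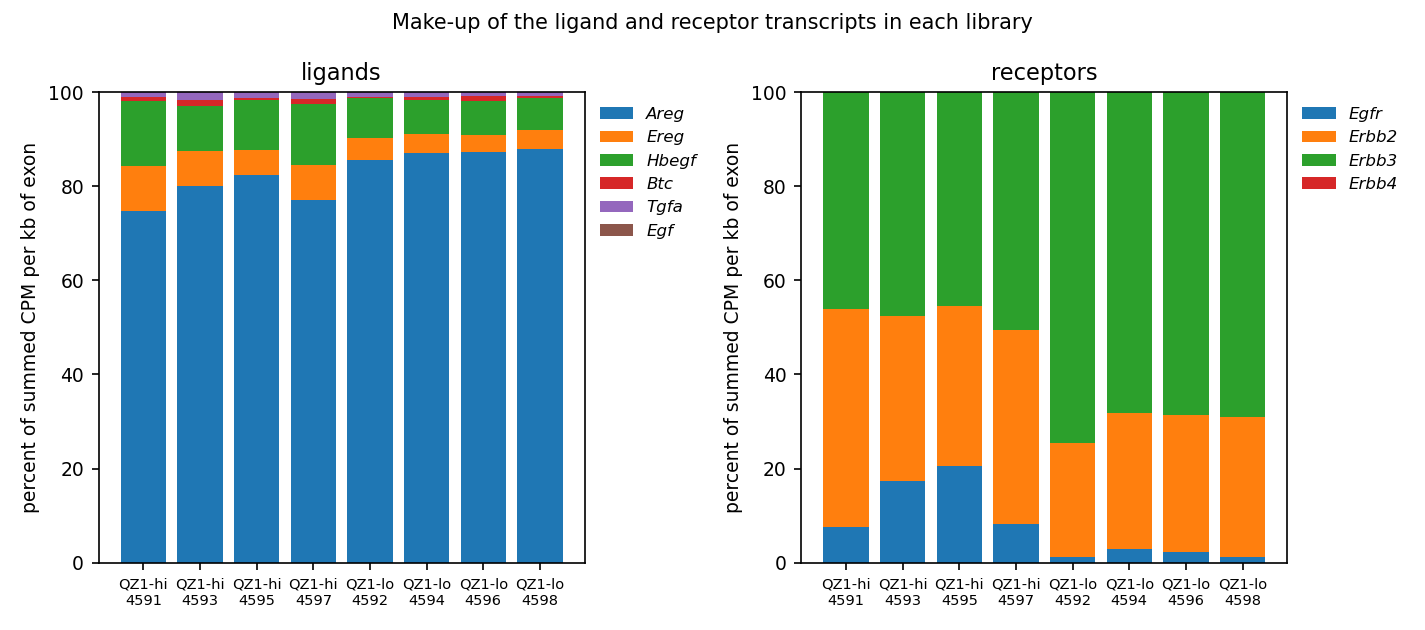
Stacked bars give each ligand's (left) and receptor's (right) percent of the summed CPM per kilobase of exon, for QZ1-hi libraries 4591 to 4597 and then QZ1-lo libraries 4592 to 4598. Areg fills most of every ligand bar, and Erbb3 takes 45.4% to 50.6% of the receptor bar in QZ1-hi against 68.1% to 74.5% in QZ1-lo.

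Ratios between members were also taken within each library. Areg CPM was 2.21 to 4.69 times that of Egfr in QZ1-hi libraries and 20.8 to 51.2 times in QZ1-lo libraries. Erbb3 was 1.15 to 1.56 times Erbb2 in QZ1-hi and 2.69 to 3.55 times in QZ1-lo. Areg over Ereg was 2.34 to 4.44 in QZ1-hi and 5.55 to 7.40 in QZ1-lo. Areg over Erbb3, by contrast, overlapped, at 1.44 to 2.38 and 1.08 to 1.79. These are ratios of CPM without division by length, and they compare libraries, not the abundance of one transcript against another.

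Among the other genes of the pathway, those that passed the test were all lower in QZ1-hi. Of 31 listed, 28 were tested, 6 fell and 0 rose, against the same 8.21% lower and 9.88% higher of all genes, and their median log2 fold change was -0.11. At an unadjusted p under 0.05, edgeR gave 2403 genes higher and 2106 lower over the table. The genes that fell were Nrg1, a ligand of ERBB3 and ERBB4 (-1.35 ± 0.39, adjusted p = 0.0315), Lrig1, a membrane protein that promotes receptor degradation (-1.05 ± 0.24, 0.00956), and Cblc, a ubiquitin ligase (-1.16 ± 0.34, 0.0359). The others were the adaptors Grb7 (-0.70 ± 0.21, 0.0360) and Eps8 (-0.45 ± 0.13, 0.0333) and the ERBB2-binding mucin Muc4 (-1.13 ± 0.20, 0.00273), all as log2 fold change ± SE from edgeR. The count of 6 became 5 without library 4592 or 4593, 4 without 4598, 3 without 4591, 4594, 4596 or 4597 and 2 without 4595, and it was 9 with library size alone. Of the 6, only Lrig1 and Muc4 were called in each of these fits.

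The adaptor Shc1 was higher in QZ1-hi without overlap, at 37.7 to 44.8 against 30.1 to 34.0 CPM, and did not pass the test (log2 fold change 0.31 ± 0.11 SE, edgeR adjusted p = 0.0897, and -0.14 with library size alone). None of the 4 ligand shedding genes passed it, which are the sheddases Adam10 and Adam17 and the iRhom genes Rhbdf1 and Rhbdf2, whose inactive rhomboid products regulate ADAM17. Adam10 was at 78.5 to 90.6 CPM in QZ1-hi and 99.3 to 141 CPM in QZ1-lo, without overlap, with a log2 fold change of -0.41 ± 0.13 (SE, edgeR adjusted p = 0.0505). It passed the threshold under 8 of the 16 alternatives, among them DESeq2 (adjusted p = 0.0307) and edgeR without QZ1-lo library 4596 (adjusted p = 0.0420). Adam17, the main sheddase of Areg, was at 57.3 to 73.5 and 46.0 to 58.6 CPM, with a log2 fold change of 0.22 ± 0.13 (SE, edgeR adjusted p = 0.276) that turned to -0.27 with library size alone. Errfi1, an inducible inhibitor of EGFR, was at 155 to 204 and 153 to 181 CPM, with a log2 fold change of 0.05 ± 0.12 (SE, edgeR adjusted p = 0.858).

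The list of 13 immediate early and dissociation genes holds genes that cell preparation is known to induce, some of which EGFR signaling also induces. Of these 13, 6 rose (Fos, Fosb, Jun, Egr1, Ier2 and Zfp36) and 0 fell, against 9.88% higher and 8.21% lower of all tested genes. Fos was at 623 to 992 CPM in QZ1-hi and 361 to 545 CPM in QZ1-lo. The summed list overlapped, at 4211 to 6334 and 2792 to 4681 CPM. The count was 3 without QZ1-hi library 4593, 4 without QZ1-lo library 4592 or QZ1-hi library 4595, and 0 with library size alone. The part of cell preparation in the level of any member was not tested.

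Cell type markers differed between the populations along with the members. All 8 epithelial markers fell (median log2 fold change -1.28), and their sum was 658 to 993 CPM in QZ1-hi and 1752 to 2374 CPM in QZ1-lo. All 5 ciliated cell markers (67.4 to 193 against 314 to 590 CPM) and all 4 club cell markers (329 to 994 against 1460 to 4059 CPM) fell too, as did 4 of 6 alveolar type 1 markers, while the fifth of these called, Pdpn, rose. Of 6 alveolar type 2 markers, 2 rose and 0 fell, with overlapping sums of 6181 to 11380 and 4536 to 7152 CPM. All 7 endothelial markers (906 to 2145 against 69.7 to 276 CPM) and all 5 fibroblast markers (918 to 1843 against 26.6 to 217 CPM) rose. The alveolar type 2 count was 0 without QZ1-lo library 4594 or with library size alone, 1 without 4592 or 4598, and 3 without QZ1-hi library 4597. Markers of pericytes and smooth muscle (2 of 5), mesothelium (4 of 4) and platelets (3 of 4) rose as well and 0 of them fell, and the mesothelial count was 0 without QZ1-hi library 4593, 1 without QZ1-lo library 4596 or 4598 and 2 without 4592.

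Immune cells known to make amphiregulin were checked in the same way. The 7 T cell and innate lymphoid markers summed to 43.4 to 72.0 CPM in QZ1-hi and 21.7 to 63.7 CPM in QZ1-lo, with overlap, and 1 of them rose and 1 fell (0 to 3 and 0 to 2 over the alternatives). Of the 5 mast cell and basophil markers, Ms4a2 and Fcer1a had 0 counts in all libraries, Mcpt8 and Cpa3 did not pass the filter, and Kit, which is not limited to these cells, rose. The 10 myeloid markers summed to 4151 to 11799 and 3029 to 7711 CPM, and 0 of them were called, against 2 lower without QZ1-hi library 4597 and 3 lower with library size alone. Ptprc, which encodes CD45, was present in the CD45-negative gate at 71.4 to 222 and 93.4 to 161 CPM.

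Members were then set against the summed epithelial markers of the same library, a measure chosen after the values were seen. Areg was 7.54, 9.87, 9.42 and 8.56% of that sum in QZ1-hi libraries 4591, 4593, 4595 and 4597, and 8.14, 9.21, 7.58 and 10.6% in QZ1-lo libraries 4592, 4594, 4596 and 4598. The populations overlapped nearly whole, with means of 8.84 ± 1.03% and 8.89 ± 1.35% (SD, n = 4 each). Erbb3 was 4.14 to 5.93% of the epithelial sum in QZ1-hi and 5.31 to 7.52% in QZ1-lo, again with overlap. The result depended on the marker list, and a change of list shifts the mean log2 difference of every gene by the same amount. Relative to the 6 alveolar type 2 markers, Areg was 0.657 to 1.22% in QZ1-hi and 2.52 to 4.11% in QZ1-lo. Erbb3 was 0.429 to 0.630% and 1.76 to 3.06%. Both were lower in QZ1-hi without overlap, as were Hbegf and Erbb2, while Ereg, Tgfa, Btc and Egfr overlapped. Relative to the 5 ciliated cell markers, Areg, Erbb3, Btc and Erbb2 overlapped between the populations. Ereg, Hbegf, Tgfa and Egfr were higher in QZ1-hi without overlap on that ratio. The share over all tested genes was not taken for the alveolar type 2 or ciliated list, so these separations cannot be read as particular to the members. The part of epithelial content in the lower Areg and Erbb3 levels was not tested beyond these ratios.

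The other tested members, except Btc, were higher relative to epithelial markers in QZ1-hi without overlap. Hbegf was 4.71 to 5.79% of the sum in QZ1-hi and 2.54 to 3.31% in QZ1-lo, Ereg 2.12 to 3.22% and 1.02 to 1.68%, Tgfa 0.623 to 1.15% and 0.380 to 0.543%, and Erbb2 2.66 to 4.54% and 1.95 to 2.22%. This was the common state, since 71.9% of all tested genes were higher in QZ1-hi without overlap on this ratio and 0.231% lower. The median gene was higher by 1.37 on the log2 scale, more than Ereg (1.00), Tgfa (0.80), Erbb2 (0.79) or Hbegf (0.78). Areg (-0.003) and Erbb3 (-0.25) lay below these, and Egfr (3.06) above.

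**Figure D4:**
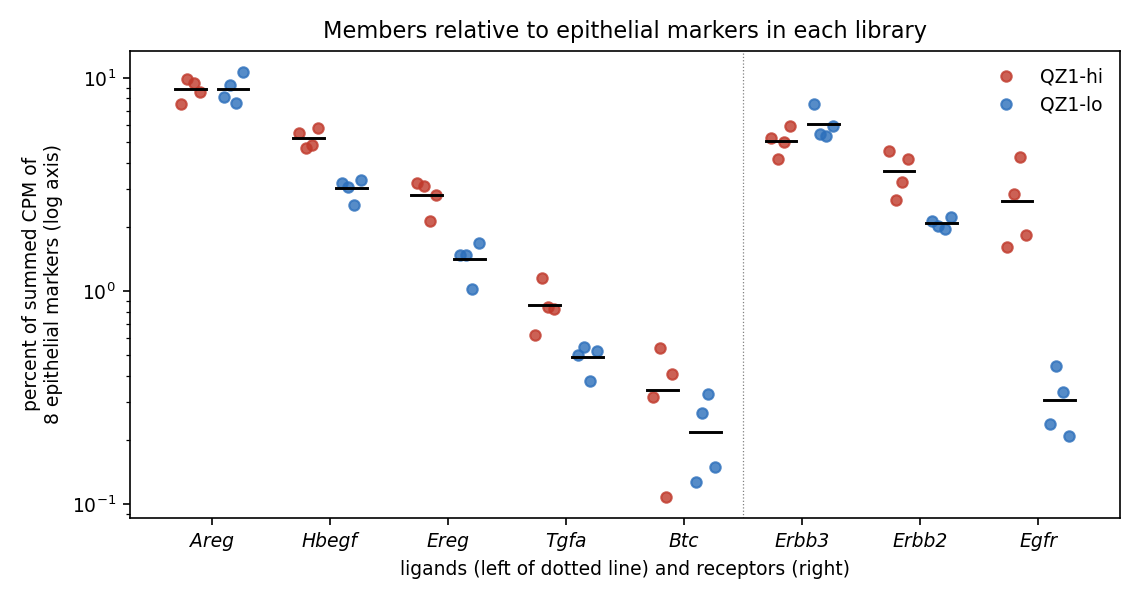
CPM of each tested member as a percent of the summed CPM of 8 epithelial markers in the same library (log axis), for 4 QZ1-hi (red) and 4 QZ1-lo (blue) libraries with black bars at the means. Areg, Erbb3 and Btc overlap between the populations, and Egfr is farthest apart, at 1.61 to 4.26% against 0.208 to 0.443%.

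Egfr was set in the same way against the 5 fibroblast markers, which include the collagen gene Col1a1 and the receptor gene Pdgfra. It was 1.57, 1.58, 1.61 and 1.31% of the fibroblast sum in the QZ1-hi libraries, a narrow range although Egfr itself varied between 12.0 and 29.6 CPM among them. In the QZ1-lo libraries it was 5.70, 4.05, 3.68 and 13.7%, all above QZ1-hi. Every tested member was lower in QZ1-hi without overlap on this ratio, whose denominator was far higher there. The log2 difference was -1.95 for Egfr and -5.27 to -4.01 for the others. The share over all tested genes was not taken for this ratio, so the separation cannot be read as particular to the members. Egfr's log2 fold change of 1.73 stood beside a median of 3.38 for these markers. Against the endothelial markers Egfr ranged from 0.999 to 2.899% in QZ1-hi and from 2.895 to 7.30% in QZ1-lo, with slight overlap. The part of stromal content in the Egfr difference was not tested.

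**Figure D5:**
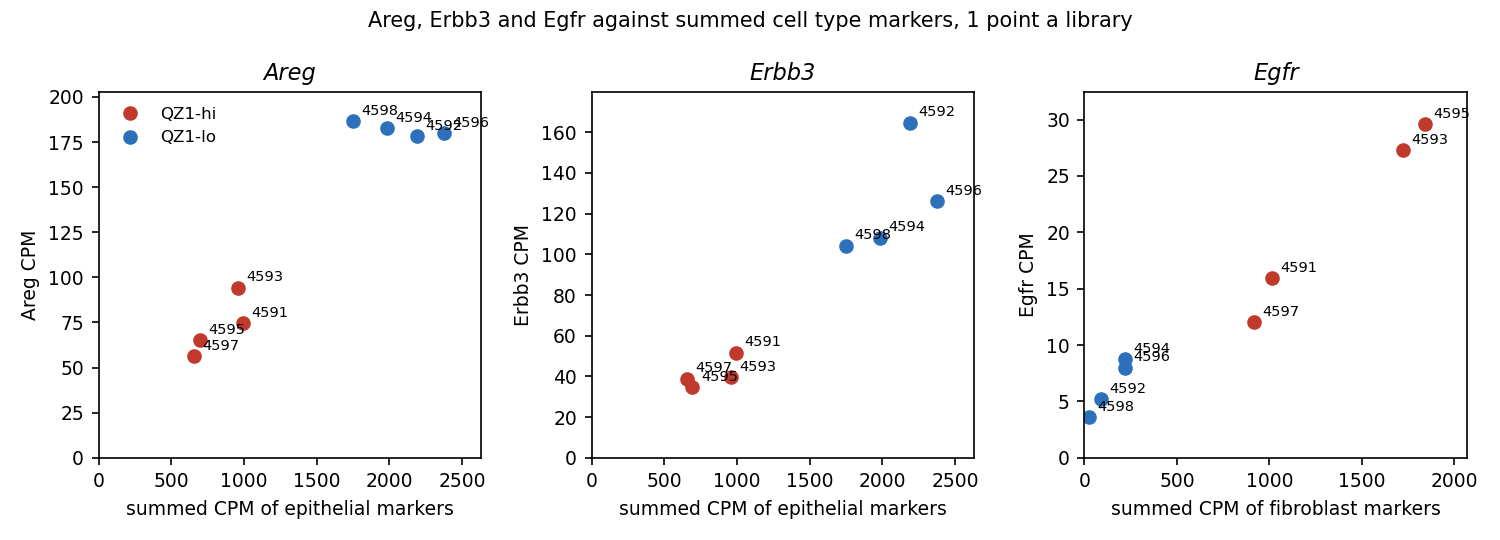
CPM of Areg and Erbb3 against the summed CPM of 8 epithelial markers, and of Egfr against that of 5 fibroblast markers, 1 point per library with its number, QZ1-hi in red and QZ1-lo in blue. QZ1-hi libraries sit low on both axes for Areg and Erbb3 and high on both for Egfr. After TMM scaling, the QZ1-lo libraries of Areg lie at 178 to 187 CPM over epithelial sums from 1752 to 2374 CPM.

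For each member called, the 3 tested genes with the nearest profile were found by the root-mean-square difference of mean-centered log2 CPM over the 8 libraries, among 15100 genes with a symbol. For Areg these were Arhgef28 (0.124), the interleukin receptor gene Il18r1 (0.140) and the zinc transporter gene Slc39a4 (0.142). For Erbb3 they were the amino acid transporter gene Slc6a14 (0.115), Rab11fip1 (0.151) and Fam83h (0.151). For Hbegf they were Ttll7 (0.054), Tjap1 (0.076) and the sodium pump subunit gene Atp1b1 (0.087). For Egfr they were Smim1 (0.173), Pcolce, an enhancer of procollagen processing (0.211), and Aebp1, a matrix-associated protein (0.217), whose distances were the largest of the 4 sets.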

How the data were processed

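Bulk RNA-seq (SMARTer Stranded Total RNA-seq, NextSeq500) was available for 8 libraries. The authors deposited raw read counts per gene by Entrez identifier, which Rsubread had assigned from alignments without normalization, and tested them with DESeq2. The build was mm10 per the labels, and the aligner, annotation and strand setting were not given in the sources used here. Of 27179 identifiers, 25275 were given a symbol. Totals were 18380918 to 26847938 counts, of which mitochondrial and ribosomal RNA genes took 34.0% to 53.2% in QZ1-lo and 43.7% to 65.6% in QZ1-hi, so that 8749446 to 16389316 remained. A floor of 3 counts equals 0.0894 to 0.179 CPM and covers counting error only.

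Counts were fitted in R 4.3.3 with edgeR 4.0.16 (TMM, filterByExpr with a minimum count of 10 and total of 15, quasi-likelihood test, Benjamini-Hochberg over 15583 genes, common dispersion 0.113) and no covariate. Each SE was obtained from the size of the log2 fold change over the root of its F statistic. For single values, two-sided exact permutation tests over libraries were used. The code was tested on simulated data. Alternatives were DESeq2 1.42.0, limma 3.58.1 (voom with quality weights), other scalings and filters, robust shrinkage, removal of mitochondrial and ribosomal RNA genes, and leaving out each library. Exon lengths, strands and exon overlaps came from GENCODE M21 on GRCm38.p6, and gene positions from RefSeq. Named genes were the 10 members, pathway and marker lists, and the 3 nearest profiles of each called member. The members and lists were chosen with earlier results of these data known. Figures were drawn in Python 3.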

Additional observations from a re-analysis of the deposited data

Results flagged for a closer look

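Each of the 10 members was examined in each population for a library far from the other 3, by Dixon's ratio of gap to range. Of these 20 groups of 4, 3 passed the 95% critical value of that ratio, and Erbb4 in QZ1-lo had no range to test. Chance alone gives about 1 in 20 for continuous values, a rate that does not hold for the small counts of Egf and Erbb4. Tgfa was at 11.0 CPM in QZ1-hi library 4593 and at 6.19 CPM in the next library. Egf was at 0.596 CPM in QZ1-hi library 4597, from 10 counts, and at 0.0424 CPM in the next library, from 1 count. Erbb4 was at 0.116 CPM in QZ1-hi library 4595, from 2 counts, and at 0 in the others, all of which is under the floor of 3 counts.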

How the results depend on the processing

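Over the 16 alternatives, Areg (-1.78 to -1.19), Erbb3 (-2.07 to -1.45) and Egfr (1.30 to 1.96) kept their call, and Ereg and Btc stayed uncalled. The members called numbered 3 to 6. Scaling by library size alone gave 882 genes higher and 2509 lower, added Tgfa (-0.97) and Erbb2 (-0.93), and reversed Adam17 (-0.27), Errfi1 (-0.40) and Shc1 (-0.14), none of which was called; it differs from TMM by construction in leaving the composition of the libraries uncorrected. Leaving out 1 library at a time gave log2 fold changes of -0.68 to -0.46 for Hbegf, -0.80 to -0.35 for Tgfa, -0.77 to -0.42 for Erbb2 and -0.049 to 0.11 for Errfi1 (reversed to -0.049 without QZ1-hi library 4591), and the cause of these changes of call was not tested. Without division by exon length, Areg took 48.8% of the ligand total in QZ1-hi and 63.2% in QZ1-lo, and Egfr 23.3% and 3.73% of the receptor total. With limma voom, Nrg1 (adjusted p = 0.0848) and Grb7 (0.0642) were not called. No paired analysis was possible because the labels do not tie QZ1-hi to QZ1-lo libraries. At 4 libraries a population and a floor of up to 0.179 CPM, Egf and Erbb4 could not be compared.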
